A study of Homo sapiens with 8 samples.

Results

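Control cells of 2 established human uveal melanoma (UVM) lines, 92.1 and MEL290, were compared by RNA sequencing, with 2 libraries of 92.1 shCtrl against 2 libraries of MEL290 NC, 4 of the 8 libraries of the study. Genes were compared if 2 or more of these 4 libraries reached 1 FPKM, which held for 12352 of the 19952 gene symbols listed. FPKM, the unit of the files, is a count of sequenced fragments scaled to the length of the transcript and to the depth of the library. The study asked how APOBEC3B (A3B), a deaminase that turns cytosine into uracil in single-stranded DNA, acts on R-loops and replication stress, and for this depleted A3B in 92.1 (shA3B) and overexpressed it in MEL290 (A3B OE). The shCtrl cells were the controls of the short hairpin experiment, with an empty vector according to the methods, and the hairpin vector also encoded TurboGFP. The NC cells were the negative controls of the overexpression experiment, whose vector was a different one. All cells were infected with lentivirus, selected with puromycin and grown in RPMI1640 with serum. Since each line came with its own vector, line and vector cannot be told apart here, and neither can fewer cells of a kind and less RNA per cell. The labels do not say whether the 2 libraries of a group came from separate cultures, so the p-values measure only the spread between these libraries.

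UVM arises from melanocytes of the eye, pigment cells that descend from the neural crest. The transcription factors MITF, SOX10 and PAX3 switch on the enzymes and structural proteins of the melanosome, in which melanin is made. Most UVM carry an activating mutation in the G protein subunits GNAQ or GNA11, which feed into both protein kinase C with ERK signalling and, through TRIO, into YAP. 92.1 is a GNAQ-mutant line, while MEL290 is known as a line without either mutation. Melanoma cells can also lose the pigment programme and take on a mesenchymal state with high AXL and extracellular matrix expression.

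The lines differed in most genes. Of the 12352 genes, 9021 (73.0%) were called at an adjusted p under 0.05 in limma, 4856 higher in 92.1 (39.3%) and 4165 higher in MEL290 (33.7%). Because so many genes were called, groups of genes are described below by the members that were called and also differed by at least 1 on the log2(FPKM + 1) scale, which held for 4959 of all genes (40.1%), 2668 higher in 92.1 (21.6%) and 2291 higher in MEL290 (18.5%). The shares of 21.6% and 18.5% are the background of every count by at least 1 given below. Members under 1 FPKM in both libraries of 1 line passed the minimum only through the other line, which fixed their direction. Counts and medians that rest on such members are descriptions. All differences are 92.1 minus MEL290 on this scale. For genes of low FPKM it gives less than the true change. The values of the lines did not overlap in 10778 genes (87.3%), so a lack of overlap, where it is given below, sets no gene apart. The median difference of all genes was 0.08 and the median of its absolute size 0.78. The 2 libraries of a line resembled each other far more than those of the other line, with a Pearson r across genes of 0.990 in 92.1 and 0.991 in MEL290 against 0.662 to 0.672 between lines. Between 4737 and 5473 symbols were listed at 0 in each of the 4 libraries, more of them in MEL290, whose rough depth was also lower at 17600000 and 20700000 fragments against 27100000 and 25200000 in 92.1. A value of exactly 0 can be a failed estimate, so it is given as listed at 0.

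**Figure D1:**
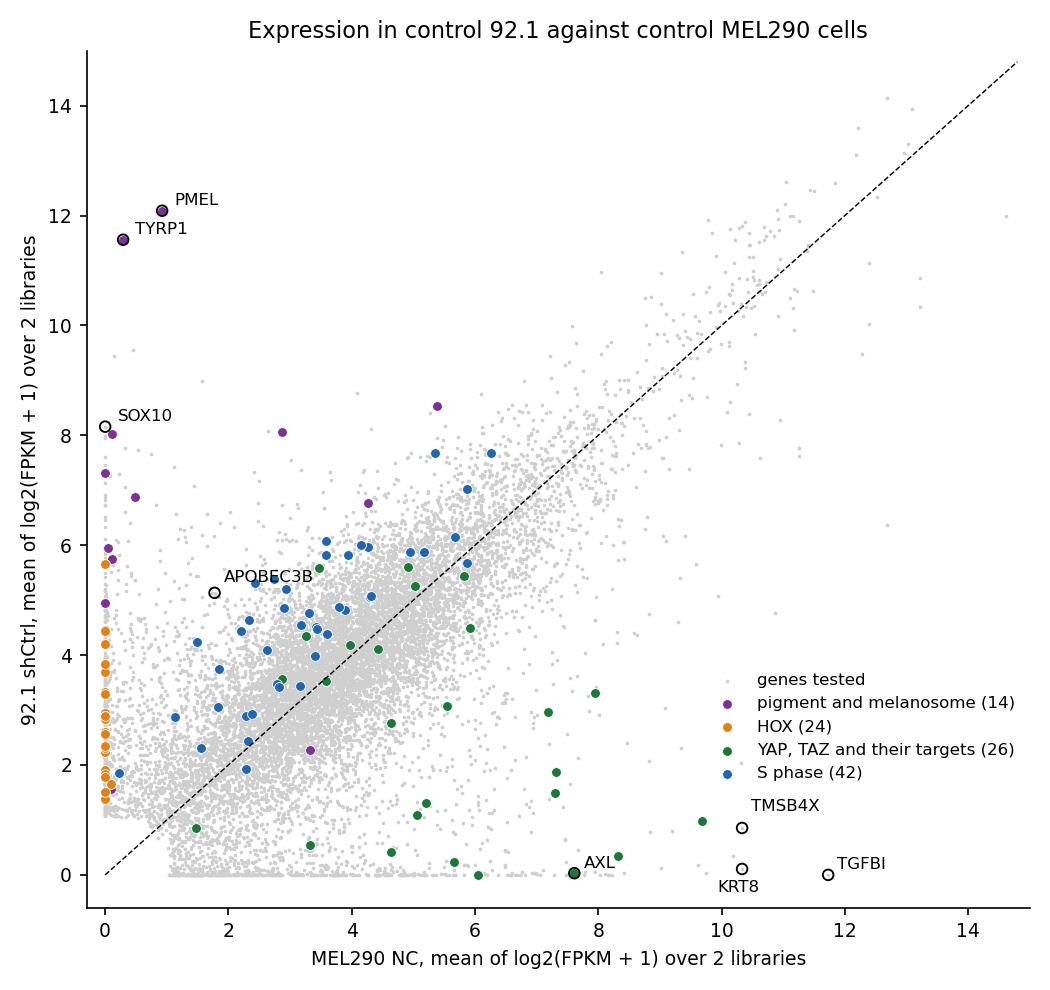
Each grey point is 1 of the genes compared, plotted by its mean log2(FPKM + 1) over the 2 MEL290 NC libraries (x axis) and the 2 92.1 shCtrl libraries (y axis), with 4 gene lists in colour and the number of members tested in brackets; the dashed line marks equal values. HOX genes and most pigment genes lie near the left edge, where MEL290 is at or near 0, most targets of YAP and TAZ lie below the line, and S phase genes lie mostly above it.

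A second comparison of the same lines shared no library with this one, 92.1 shA3B against MEL290 A3B OE. There A3B was low in 92.1 and high in MEL290, the reverse of the controls. It called 8929 of the same 12352 genes (72.3%). Of the 9021 genes called between the controls, 7765 (86.1%) were called in the same direction and 41 in the opposite one. Of the 4959 that also differed by at least 1, 4842 (97.6%) were called in the same direction and 3 in the opposite one.

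A3B itself (APOBEC3B, chr22:38982347-38992804) was among the genes higher in 92.1. It stood at 35.9 and 32.3 FPKM in 92.1 shCtrl and at 2.67 and 2.19 FPKM in MEL290 NC, a difference of 3.36 ± 0.14 (SE, n = 2 per line) with an adjusted p of 1.72e-05 in limma. The groups did not overlap, as in 87.3% of all genes, and the level of control 92.1 was close to the 28.4 and 27.5 FPKM of the MEL290 A3B OE libraries. APOBEC3C, another DNA cytosine deaminase of this family, was also higher in 92.1, at 19.98 and 19.9 against 5.37 and 5.21 FPKM (difference 1.73, adjusted p = 8.19e-05, limma). APOBEC3F overlapped between the lines, at 3.28 and 2.09 against 2.28 and 4.56 FPKM, and the other 4 APOBEC3 genes did not reach the minimum of 1 FPKM in 2 libraries. RNASEH1, the nuclease that degrades the RNA strand of R-loops, was at 21.7 and 20.9 FPKM in 92.1 and 18.5 and 17.4 FPKM in MEL290. The groups did not overlap, but the difference of 0.24 ± 0.10 (SE, n = 2 per line) was not called (adjusted p = 0.0855, limma). It was 0.40 and called once a trend on GC content and length was removed from each library (adjusted p = 0.00836, limma). Of the 13 RNase H and R-loop factors, 2 were higher in 92.1 by at least 1, where the background was 21.6% of all genes. Both encode subunits of RNase H2. RNASEH2A stood at 35.2 and 46.8 against 11.8 and 9.26 FPKM and RNASEH2B at 26.3 and 21.9 against 11.4 and 9.78 FPKM. The remaining subunit, RNASEH2C, was not called, at 25.9 and 35.5 against 24.7 and 25.9 FPKM. None of the 13 was higher in MEL290 by at least 1, while AQR, DDX5 and THOC1 were called higher there by less.

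Most genes of the pigment programme were high in 92.1 and at or near 0 in MEL290. TYRP1, a melanosomal enzyme of melanin synthesis (chr9:12685439-12710285), stood at 3388 and 2689 FPKM in 92.1 shCtrl and at 0.472 and 0.0179 FPKM in MEL290 NC, a difference of 11.27 ± 0.21 (SE, n = 2 per line) with an adjusted p of 2.40e-06 in limma. PMEL, which forms the fibrils that melanin is laid on (chr12:55954105-55973317), stood at 4316 and 4389.9 against 0.962 and 0.836 FPKM, a difference of 11.16 ± 0.08 (SE, n = 2 per line) with an adjusted p of 3.93e-07 in limma. TYR, the rate-limiting enzyme of melanin synthesis (chr11:89177875-89295759), stood at 175 and 145 FPKM in 92.1 and was listed at 0 in both NC libraries (adjusted p = 2.59e-06, limma). The groups were far apart for all 3 genes. MLANA, a melanocyte antigen, was at 251 and 265 against 0.0268 and 0.138 FPKM, and the ion channel gene TRPM1 was at 28.3 and 31.3 FPKM in 92.1 and listed at 0 in MEL290. Of the 14 pigment and melanosome genes, 13 were higher in 92.1 by at least 1 and the median difference was 5.42. Most of the 13 were under 1 FPKM in both MEL290 libraries and passed the minimum only through 92.1. This count and median are thus a description and no support. The exception was RAB27A, which moves melanosomes along actin, at 4.54 and 3.19 against 8.89 and 9.19 FPKM (difference -1.06, adjusted p = 0.0027, limma), and this call was lost without NC replicate 1 (-1.08, adjusted p = 0.0541) or 2 (-1.04, adjusted p = 0.0584). Some members kept a clear level in MEL290: GPNMB was at 40.6 and 41.1 FPKM and the melanosomal receptor GPR143 at 17.7 and 18.7 FPKM. DCT, another member, was low in both lines, at 1.97 and 1.93 FPKM in 92.1 and 0.0870 and 0.0377 FPKM in MEL290.

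The promoters of several of these genes are shown because they hold the hexamer CATGTG, a form of the E-box to which MITF binds. RefSeq sequences from 250 bases before to 50 bases after the gene start were taken in GRCh38.p14, and 11 of the 14 pigment genes had one. The hexamer, searched on both strands as CATGTG or CACATG and printed in capitals, was in 7 of these 11 promoters, in 11.2% of all 27305 promoters and in 6.35% of the 9907 promoters of tested genes. It was in 149 of 1953 promoters (7.63%) of genes called higher in 92.1 by at least 1. For those called higher in MEL290 this was 111 of 1870 (5.94%). TYR and TYRP1 each held it at 2 places and TRPM1 at 1, while that of MLANA, which was also high in 92.1, did not contain these letters in this window. In TYR the matches began 104 and 12 bases before the start, in TYRP1 144 and 11 bases before it, and in TRPM1 8 bases before it.
TYR: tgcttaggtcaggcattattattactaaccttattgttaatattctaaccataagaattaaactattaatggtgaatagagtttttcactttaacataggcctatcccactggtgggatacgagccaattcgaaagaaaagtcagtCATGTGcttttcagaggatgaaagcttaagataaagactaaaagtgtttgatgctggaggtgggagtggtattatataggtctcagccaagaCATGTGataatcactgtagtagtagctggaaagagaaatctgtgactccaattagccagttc
TYRP1: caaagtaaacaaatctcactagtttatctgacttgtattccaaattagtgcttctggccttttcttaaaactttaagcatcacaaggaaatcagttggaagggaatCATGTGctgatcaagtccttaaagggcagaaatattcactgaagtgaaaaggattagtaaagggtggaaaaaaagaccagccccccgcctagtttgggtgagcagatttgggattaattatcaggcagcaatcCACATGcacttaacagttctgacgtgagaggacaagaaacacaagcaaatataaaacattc
TRPM1: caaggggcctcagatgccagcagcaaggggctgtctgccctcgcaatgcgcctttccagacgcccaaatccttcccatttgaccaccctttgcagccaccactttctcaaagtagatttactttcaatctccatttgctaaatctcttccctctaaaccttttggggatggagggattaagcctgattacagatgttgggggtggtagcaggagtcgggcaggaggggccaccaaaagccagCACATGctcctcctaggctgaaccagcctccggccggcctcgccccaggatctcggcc
MLANA: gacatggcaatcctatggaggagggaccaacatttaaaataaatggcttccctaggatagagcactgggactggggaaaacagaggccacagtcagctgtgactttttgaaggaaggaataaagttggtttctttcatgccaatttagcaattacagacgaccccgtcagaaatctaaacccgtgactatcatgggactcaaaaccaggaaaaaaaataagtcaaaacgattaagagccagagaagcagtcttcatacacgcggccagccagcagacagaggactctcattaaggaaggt

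The regulators above these genes differed in degree. SOX10 (chr22:37970686-37987422) was at 247 and 328 FPKM in 92.1 and listed at 0 in both NC libraries (difference 8.16, adjusted p = 2.62e-06, limma). PAX3 was at 50.9 and 44.2 against 0.0189 and 0 FPKM and TFAP2A, a factor of the neural crest and of melanocytes, at 189.8 and 153 against 1.37 and 1.01 FPKM. EDNRB, the endothelin receptor of melanoblasts, was at 44.5 and 43.3 FPKM in 92.1 and listed at 0 in MEL290. MITF, by contrast, was still expressed in MEL290, at 13.7 and 19.6 FPKM against 75.4 and 66.97 FPKM in 92.1, a difference of 2.05 ± 0.18 (SE, n = 2 per line) with an adjusted p of 2.22e-04 in limma. Of 7 melanocyte regulators and receptors, 6 were higher in 92.1 by at least 1, and LEF1 was at 4.21 and 3.39 against 3.38 and 3.82 FPKM with a difference of 0.06. KIT, the stem cell factor receptor of melanocytes, did not reach the minimum in either line.

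Genes of the neural crest and of Schwann cells followed in 7 of the 8 members tested, out of 15 listed. All 7 were under 1 FPKM in both MEL290 libraries and passed the minimum only through 92.1, so this count is a description and no support. The intermediate filament NES (nestin) was at 53.5 and 64.7 against 0.0205 and 0.0961 FPKM, the neuregulin receptor ERBB3 at 47.3 and 41.3 against 0.155 and 0.553 FPKM, and S100A1 at 168 and 146 against 0.210 and 0.120 FPKM. The exception was SOX9, a SOX factor related to SOX10, at 3.99 and 3.33 FPKM in 92.1 and 23.4 and 23.7 FPKM in MEL290 (difference -2.40, adjusted p = 4.23e-05, limma). S100B was at only 1.40 and 1.33 FPKM in 92.1 and listed at 0 in MEL290. Among the members that did not reach the minimum were NGFR, SOX2, TFAP2B and GAP43, with NGFR listed at 0 in all 4 libraries. The median of the list was 4.07. It turned to -2.40 when an FPKM of at least 1 was required in all 4 libraries, which left SOX9 as the 1 member tested. The label of UVM cells was thus matched by most melanocyte markers in 92.1, though DCT was low there. In MEL290, by contrast, TYR and SOX10 were listed at 0 and 4 of the 14 pigment genes reached 1 FPKM in each library.

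**Figure D2:**
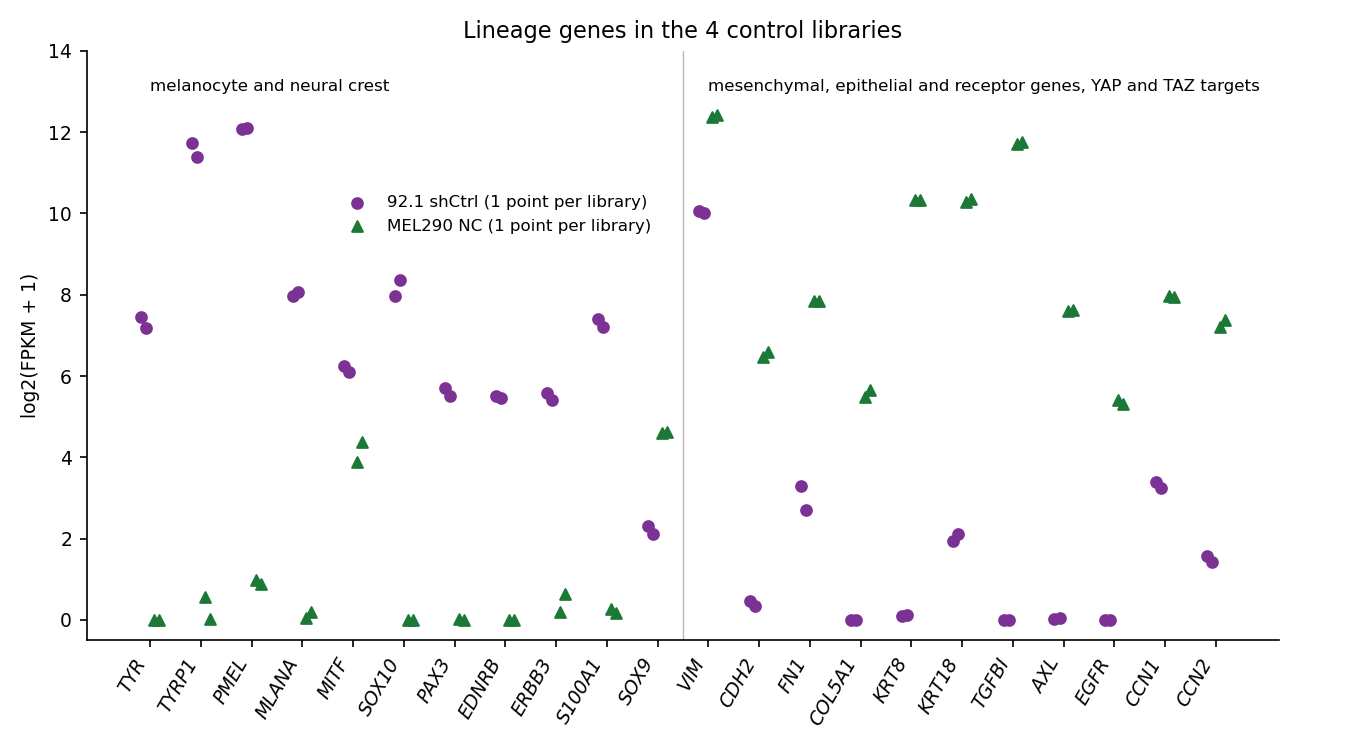
Each point is 1 library, with log2(FPKM + 1) on the y axis, circles for 92.1 shCtrl and triangles for MEL290 NC, 2 of each per gene. To the left of the grey line all genes but SOX9 are higher in 92.1, with MITF, beside SOX9, the one still above 3 on this scale in MEL290; to the right all are higher in MEL290.

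The genes furthest above their level in 92.1 included secreted and cytoskeletal genes of MEL290. TGFBI, a matrix protein induced by TGF-beta (chr5:136028988-136063818), was listed at 0 in both 92.1 libraries and stood at 3340.3 and 3449 FPKM in MEL290 (difference -11.73 ± 0.08, SE, n = 2 per line, adjusted p = 3.93e-07, limma). THBS1, a matrix glycoprotein, was at 0.00476 and 0.0545 against 330.1 and 353 FPKM. TMSB4X, which binds monomeric actin, was at 0.597 and 1.05 FPKM in 92.1 and 1242 and 1339 FPKM in MEL290. The lines did not overlap for these genes, as in 87.3% of all genes. Also among the 12 largest differences in this direction were KRT8, KRT18, KRTAP2-3, UCHL1, RARRES2, CYP24A1, IGFBP3 and PRSS23, with differences from -10.23 to -8.22. In the direction of 92.1 the 12 largest, beside TYRP1, PMEL, SOX10 and MLANA, were BCAN, APOE, A2M, GAL, IGFBP2, C11orf96, SERPINF1 and MDK, with differences from 9.30 down to 7.41. BCAN, a proteoglycan of nervous tissue, was at 693 and 706 against 0.0244 and 0.199 FPKM, and APOE, a lipid carrier protein, at 713 and 786 against 0.345 and 0.391 FPKM.

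The mesenchymal and epithelial lists did not split along their names. Of 9 fibroblast genes tested, 8 were higher in MEL290 by at least 1 and the median was -3.99. Most of the 8 were under 1 FPKM in both 92.1 libraries and passed the minimum only through MEL290. The count and the median are thus a description and no support. The exception was LUM, at 5.03 and 3.83 FPKM in 92.1 and 0.0229 and 0 FPKM in MEL290. FBN1, which forms microfibrils, was at 0.570 and 0.407 against 64.7 and 72.3 FPKM and the surface protease FAP at 0 and 0.224 against 24.8 and 23.6 FPKM. Of the fibrillar collagen chains in this list, COL1A1 was at 2.59 and 1.67 against 26.9 and 27.5 FPKM and COL5A1 was listed at 0 in 92.1 and stood at 44.1 and 49.6 FPKM in MEL290, both called higher in MEL290. COL1A2, the partner chain of COL1A1, and COL3A1 reached at most 0.136 FPKM in any of the 4 libraries, and DCN was listed at 0 in all 4. Of the epithelial-mesenchymal switch genes, 4 were higher in MEL290 and 4 in 92.1. CDH2 (N-cadherin) was at 0.385 and 0.277 against 87.8 and 95.9 FPKM, FN1 (fibronectin) at 8.74 and 5.48 against 229 and 228 FPKM, VIM at 1068 and 1023 against 5290.3 and 5438 FPKM and ZEB1 at 0.394 and 1.20 against 13.2 and 12.4 FPKM. The 4 higher in 92.1 were the transcription factors SNAI2 at 74.6 and 58.2 against 0 and 0.330 FPKM, ZEB2 at 30.1 and 19.5 against 4.60 and 4.40 FPKM, TWIST1 at 32.9 and 28.8 against 4.87 and 4.59 FPKM and TWIST2 at 6.66 and 6.91 FPKM against 0. ZEB1 and ZEB2, close relatives in sequence, thus stood in opposite order in the lines.

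Of 7 epithelial genes tested, 5 were higher in MEL290 by at least 1. Of the simple epithelial keratins, KRT8 (chr12:52897187-52949954) was at 0.0658 and 0.0886 FPKM in 92.1 and 1295 and 1283 FPKM in MEL290, and its partner KRT18 at 2.85 and 3.32 against 1251 and 1298 FPKM. The splicing factor ESRP1, itself a marker of epithelial cells, went the other way, at 26.9 and 20.02 FPKM in 92.1 and listed at 0 in MEL290. CDH1 (E-cadherin) reached at most 0.393 FPKM in any library and EPCAM 0.0728 FPKM, and KRT5 was listed at 0 in all 4. The 6 tested genes of the retinal pigment epithelium divided evenly: SERPINF1 was at 221 and 214 against 0.154 and 0.363 FPKM, while OTX2, a transcription factor of the eye and forebrain, was listed at 0 in 92.1 and at 25.8 and 28.2 FPKM in MEL290. Of the endothelial list only EMCN reached the minimum, at 23.001 and 19.1 FPKM in 92.1 and 0 in MEL290, with CDH5 listed at 0 in all 4 libraries. Of the immune list CD68, a lysosomal protein, CSF1R and LCP1 did, with CD68 not called at 14.5 and 34.996 against 28.8 and 26.1 FPKM, and CD3E was listed at 0 throughout. Whether cells of another kind had a part in any of these levels was not tested beyond these markers.

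**Figure D3:**
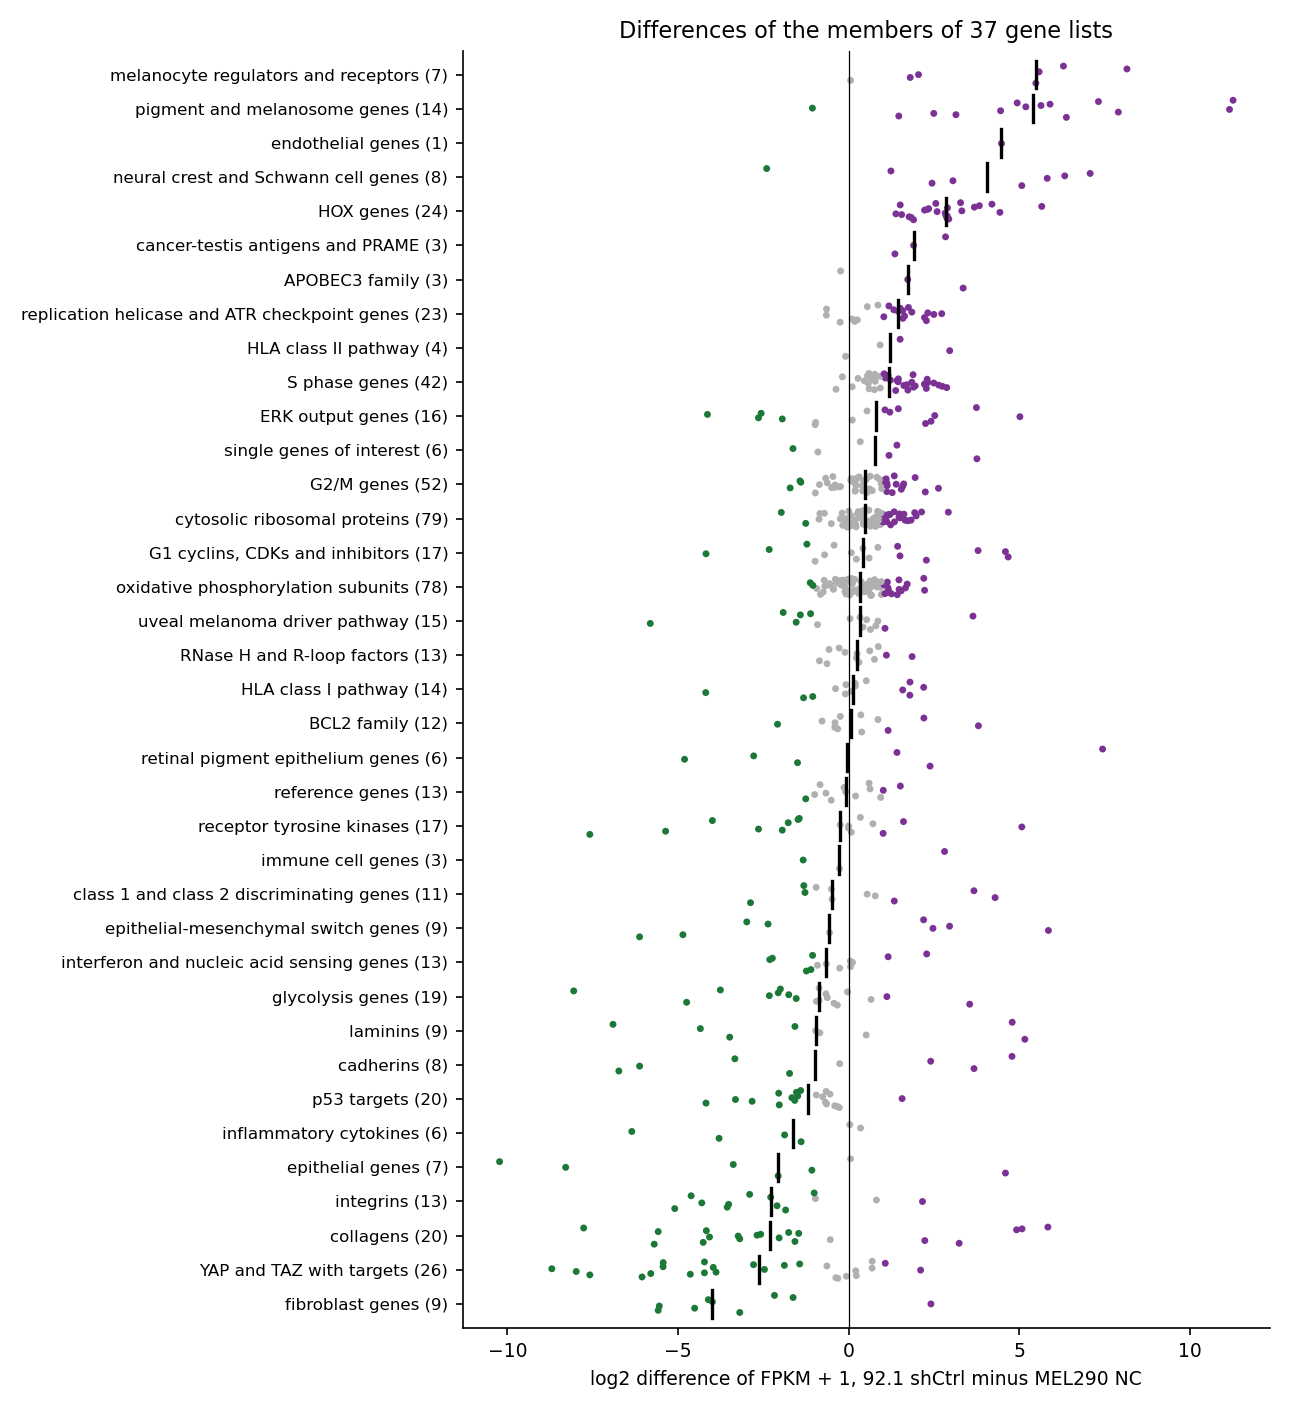
Each point is a tested member of 1 of 37 gene lists (number tested in brackets), placed by its log2 difference, 92.1 shCtrl minus MEL290 NC; black bars are list medians. Purple marks members called higher in 92.1 by at least 1, green those called higher in MEL290 by at least 1, grey the rest. Medians run from 5.49 for melanocyte regulators to -3.99 for fibroblast genes. Members under 1 FPKM in both libraries of 1 line passed the minimum only through the other line.

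Genes of the extracellular matrix and its receptors were mostly higher in MEL290. Of 20 collagens tested, 14 were higher in MEL290 by at least 1 and 5 in 92.1, with a median of -2.30. Most of the 14 were under 1 FPKM in both 92.1 libraries, and all 5 were under it in both MEL290 libraries. These passed the minimum only through 1 line, so the counts and the median are a description and no support. Of the main basement membrane chains, COL4A1 was at 26.8 and 24.9 FPKM in 92.1 and 445 and 457 FPKM in MEL290, and COL4A2 at 79.02 and 63.6 against 666 and 685 FPKM. COL8A1 was listed at 0 in 92.1 and stood at 219 and 213 FPKM in MEL290. The 5 in the other direction included 2 chains of the same microfibrillar collagen, COL6A1 at 35.6 and 32.01 against 0.253 and 0.0470 FPKM and COL6A2 at 31.1 and 34.8 FPKM in 92.1 and listed at 0 in MEL290. Of 9 laminins, 4 were higher in MEL290, and 2 in 92.1, LAMA1 at 36.1 and 33.8 FPKM and LAMC3 at 22.6 and 31.7 FPKM, both listed at 0 in MEL290. Integrins were more uniform: 10 of 13 were higher in MEL290 by at least 1, 1 in 92.1 and the median was -2.28. ITGB1, the partner of most matrix-binding alpha chains, was at 102 and 79.9 against 447 and 439.7 FPKM, and ITGA3, a laminin receptor chain, at 5.60 and 7.58 against 259.9 and 252 FPKM. The 8 cadherins tested differed without a common direction, 4 higher in MEL290, with CDH11 listed at 0 in 92.1 and at 98.5 and 112 FPKM in MEL290, and 3 higher in 92.1, with CDH19 at 15.2 and 9.07 FPKM and 0.

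The targets of YAP and TAZ, coactivators that work through TEAD factors, were higher in MEL290. Of YAP1, WWTR1, 2 TEAD genes and 22 targets, 16 of 26 were higher in MEL290 by at least 1 and 2 in 92.1, and the median was -2.62. CCN1, a matricellular target, was at 9.54 and 8.42 FPKM in 92.1 and 250.2 and 243 FPKM in MEL290, a difference of -4.64 ± 0.10 (SE, n = 2 per line) with an adjusted p of 3.00e-06 in limma. CCN2 was at 1.98 and 1.68 against 148 and 164 FPKM, a difference of -5.79 ± 0.12 (SE, n = 2 per line) with an adjusted p of 2.96e-06 in limma. ANKRD1, a nuclear and sarcomeric protein, was listed at 0 in 92.1 and stood at 69.6 and 61.2 FPKM in MEL290. The lines did not overlap for these 3 genes, as in 87.3% of all genes, and the smallest MEL290 value of each was far above the 92.1 values. The coactivators differed from each other: YAP1 was at 49.7 and 45.3 FPKM in 92.1 and 27.2 and 30.9 FPKM in MEL290, called higher in 92.1 by 0.69, while WWTR1, which encodes TAZ, was at 0.228 and 0.454 against 24.4 and 23.4 FPKM. The 2 members higher in 92.1 by at least 1 were TEAD4 and FOXF2.

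The hexamer GGAATG, the core of the site that TEAD factors bind, was searched in the same promoter windows on both strands (GGAATG or CATTCC, in capitals). It was in 8 of the 19 promoters of this list that RefSeq gave, in 3836 of all 27305 promoters and in 10.9% of the 9907 promoters of tested genes. The promoters of CCN2 and ANKRD1 are shown because both held it more than once and both genes differed strongly. The matches began 169, 104 and 95 bases before the start of CCN2, and 220 and 128 bases before that of ANKRD1. Genes called higher in MEL290 by at least 1 held it in 239 of 1870 promoters and those called higher in 92.1 in 215 of 1953.
CCN2: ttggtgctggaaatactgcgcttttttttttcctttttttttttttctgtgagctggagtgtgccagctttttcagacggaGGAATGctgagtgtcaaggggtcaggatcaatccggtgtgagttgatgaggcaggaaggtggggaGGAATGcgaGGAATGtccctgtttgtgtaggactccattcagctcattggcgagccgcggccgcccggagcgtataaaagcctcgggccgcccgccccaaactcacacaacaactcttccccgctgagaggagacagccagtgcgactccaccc
ANKRD1: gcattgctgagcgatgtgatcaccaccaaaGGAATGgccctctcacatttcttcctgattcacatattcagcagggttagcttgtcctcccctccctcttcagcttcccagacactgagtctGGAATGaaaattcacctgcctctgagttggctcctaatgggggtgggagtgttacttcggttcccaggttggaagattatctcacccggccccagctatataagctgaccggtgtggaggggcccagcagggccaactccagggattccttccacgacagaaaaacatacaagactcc

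Among 17 receptor tyrosine kinases tested, 8 were higher in MEL290 by at least 1 and 3 in 92.1. AXL, the receptor for GAS6, was at 0.0156 and 0.0273 FPKM in 92.1 and 191 and 198 FPKM in MEL290, a difference of -7.58 ± 0.11 (SE, n = 2 per line) with an adjusted p of 1.35e-06 in limma. EGFR was listed at 0 in 92.1 and at 41.3 and 38.9 FPKM in MEL290, and PDGFRB was at 0.255 and 0.0658 against 18.4 and 16.4 FPKM. The receptors thus differed in kind, with ERBB3 high in 92.1 and EGFR and AXL in MEL290. MET, the receptor of hepatocyte growth factor, was expressed in both, at 12.4 and 13.1 against 48.02 and 43.8 FPKM, and the insulin-like growth factor receptor IGF1R, at 16.5 and 15.6 against 20.8 and 17.7 FPKM, was not called.

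Of 15 genes of the UVM driver pathway, 2 were higher in 92.1 by at least 1 and 5 in MEL290, with a background of 21.6% and 18.5%. The files give RNA levels and not mutations. GNAQ was at 15.9 and 9.87 against 22.9 and 26.2 FPKM and GNA11 at 29.9 and 34.2 against 17.8 and 18.1 FPKM. RASGRP3, which links protein kinase C to RAS in UVM, was at 65.5 and 54.8 against 4.54 and 3.26 FPKM (difference 3.65, adjusted p = 2.58e-05, limma), and PLCB4, the phospholipase downstream of GNAQ, went the other way at 1.61 and 0.824 against 119.8 and 123 FPKM. BAP1, a tumour suppressor lost in many metastatic UVM, was at 41.3 and 55.5 FPKM in 92.1 and 22.3 and 22.3 FPKM in MEL290. The call of BAP1 was lost without NC replicate 2 (1.07, adjusted p = 0.0501, limma). That of GNAQ was lost without shCtrl replicate 2 (-0.59, adjusted p = 0.0565, limma) and without NC replicate 1 (-1.003, adjusted p = 0.113) or 2 (-0.82, adjusted p = 0.161), as well as with no filter on low FPKM (-0.91, adjusted p = 0.0534).

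ERK output genes split in both lines. Of 16, 8 were higher in 92.1 by at least 1 and 4 in MEL290, with a median of 0.80. Those of 92.1 included ETS factors and feedback inhibitors of the pathway: ETV4 was at 52.8 and 66.8 against 0.727 and 1.002 FPKM, SPRY4 at 30.7 and 32.4 against 1.08 and 1.82 FPKM, DUSP6 at 25.7 and 31.4 against 4.63 and 4.37 FPKM and DUSP4 at 80.7 and 65.1 against 14.2 and 14.6 FPKM. Those of MEL290 were FOSL1, a subunit of AP-1, at 1.14 and 0.991 against 35.9 and 34.7 FPKM, and IER3, EPHA2 and EPHA4, with differences from -1.94 to -2.64. The genes used to separate class 1 from class 2 UVM gave 3 of 11 in each direction (background 21.6% and 18.5%). HTR2B, a serotonin receptor that marks class 2 tumours, was at 22.2 and 15.6 FPKM in 92.1 and listed at 0 in MEL290, while ECM1, also a class 2 marker, was at 1.17 and 1.71 against 17.6 and 15.9 FPKM.

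HOX genes, which set position along the body axis, were expressed in 92.1 and not in MEL290. All 24 HOX genes that passed the minimum were higher in 92.1 by at least 1, with differences from 1.39 to 5.66 and a median of 2.84. They passed only through 92.1, so this count is a description and no support. Of all 39 HOX genes listed, 37 were listed at 0 in both NC libraries and 4 in both shCtrl libraries. HOXD1 was the highest, at 41.6 and 59.2 FPKM, followed by HOXB7 at 20.01 and 21.3 FPKM, HOXD4 at 16.1 and 18.9 FPKM and HOXD13 at 12.7 and 13.9 FPKM. All 4 clusters were represented, with 5 HOXA, 8 HOXB, 5 HOXC and 6 HOXD genes tested. The highest level of any HOX gene in a MEL290 library was 0.137 FPKM, that of HOXB4.

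Genes of DNA replication were higher in 92.1. Of 23 genes of the replicative helicase and the ATR checkpoint, 15 were higher in 92.1 by at least 1 and 0 in MEL290 (background 21.6% and 18.5%), with a median of 1.45. All 6 subunits of the MCM helicase were among them: MCM2 stood at 63.5 and 70.1 against 11.2 and 10.7 FPKM, a difference of 2.50 ± 0.10 (SE, n = 2 per line) with an adjusted p of 1.66e-05 in limma, and MCM3 at 121 and 124 against 17.5 and 17.6 FPKM, a difference of 2.73 ± 0.08 (SE, n = 2 per line) with an adjusted p of 7.26e-06 in limma. CDC45, which activates the helicase, was at 34.7 and 37.3 against 7.32 and 5.95 FPKM. For these 3 genes, as for 87.3% of all genes, the groups did not overlap. The checkpoint kinases themselves were not called: ATR was at 6.27 and 7.07 against 8.14 and 8.03 FPKM and CHEK1, which encodes Chk1, at 19.7 and 13.6 against 12.8 and 14.3 FPKM, with CHEK1 called at 0.49 once the trend on GC and length was taken out (adjusted p = 0.0284, limma). Every helicase gene of the list was higher in 92.1 by at least 1. Of the checkpoint genes only TOPBP1, TIMELESS, RAD9A and RAD1 were, by 1.18, 1.76, 1.51 and 1.33. WEE1 was called higher in 92.1 by 0.86. HUS1 and RAD17 were called higher in MEL290, both with a difference of -0.65, and ATRIP, CLSPN and TIPIN were not called. Of 42 S phase genes, 25 were higher in 92.1 by at least 1 and 0 in MEL290, and the median was 1.19. The list shares genes with the helicase list, so the counts are not independent.

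G2/M genes were less one-sided. Of 52, 16 were higher in 92.1 by at least 1 and 3 in MEL290, and the median was 0.49. The centromere histone CENPA was at 36.04 and 35.2 against 4.23 and 5.64 FPKM and AURKB, a mitotic kinase, at 51.7 and 56.8 against 13.4 and 8.35 FPKM. The 3 genes higher in MEL290 were MKI67, the Ki-67 proliferation antigen, at 2.06 and 5.27 against 10.7 and 10.8 FPKM, and the kinesins CENPE at 0.540 and 0.565 against 4.10 and 4.07 FPKM and KIF20B at 2.002 and 1.20 against 5.87 and 5.66 FPKM. The MKI67 call was lost without NC replicate 1 (-1.43, adjusted p = 0.132, limma) or 2 (-1.41, adjusted p = 0.135, limma), and with all 4 libraries when no filter on low FPKM was applied (-1.42, adjusted p = 0.0520, limma). The cell cycle differences were lower between the A3B-perturbed libraries. In a test of the difference of the 2 line differences over all 8 libraries, which called 516 of all genes (4.18%) and 2441 at an unadjusted p under 0.05, 26 of 52 G2/M genes were called, all with a lower 92.1 value relative to MEL290 after perturbation. The same held for 7 of 42 S phase genes. The median difference of the S phase genes was 1.19 between controls and 0.80 between perturbed libraries, and that of the G2/M genes 0.49 and -0.15. As a depleted line was set against an overexpressing one, this test does not tell which line changed. MCM2, for example, was at 69.1 and 60.8 FPKM in 92.1 shA3B and 22.9 and 21.8 FPKM in MEL290 A3B OE, the last pair above the NC libraries and the first inside or just under the shCtrl range.

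**Figure D4:**
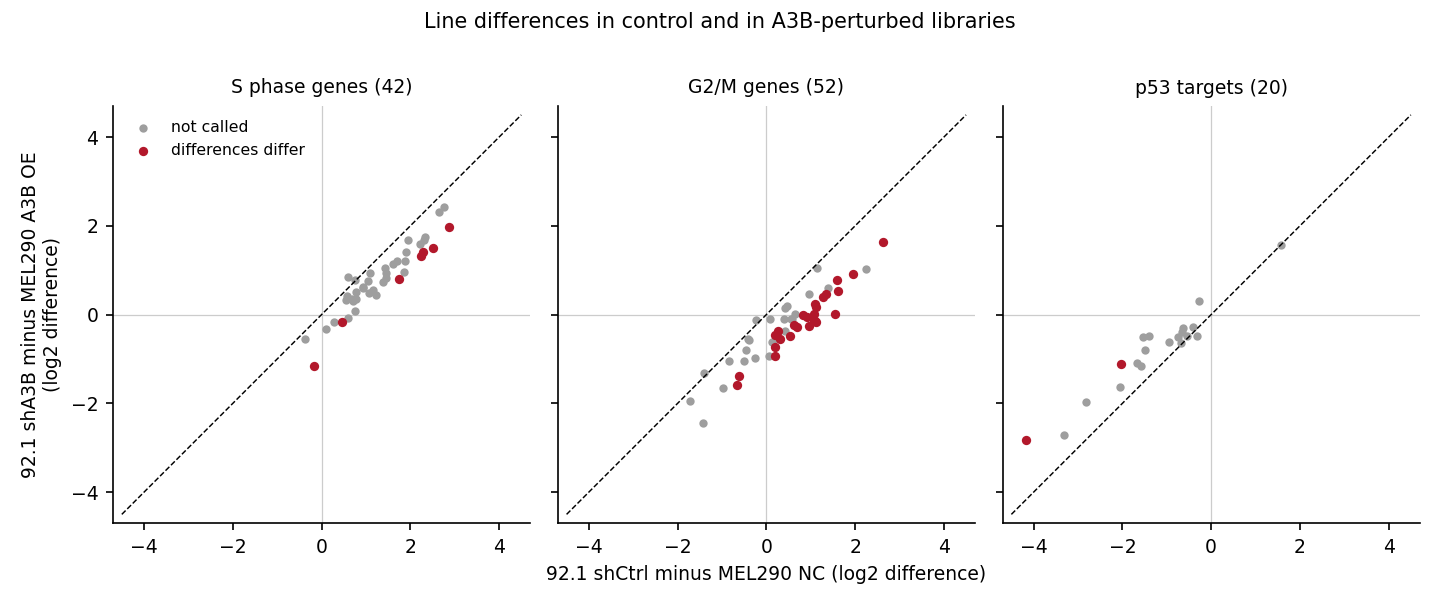
Each point is a gene, plotted by its log2 difference between lines in the control libraries (x axis) and in the A3B-perturbed libraries (y axis, 92.1 shA3B minus MEL290 A3B OE); the dashed line marks equal differences and red marks genes whose 2 differences differed (adjusted p under 0.05, limma, 8 libraries). Of the S phase genes 40 of 42 and of the G2/M genes 50 of 52 lie below the dashed line, of the p53 targets 2 of 20.

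Targets of p53 were higher in MEL290. Of 20, 10 were higher in MEL290 by at least 1 and 1 in 92.1, with a median of -1.17. CDKN1A, which encodes the cyclin-dependent kinase inhibitor p21, was at 24.3 and 16.6 FPKM in 92.1 and 371 and 391 FPKM in MEL290, a difference of -4.18 ± 0.17 (SE, n = 2 per line) with an adjusted p of 1.79e-05 in limma. GADD45A, a stress gene, was at 6.36 and 5.34 against 67.2 and 66.7 FPKM and MDM2, a ubiquitin ligase, at 25.2 and 16.3 against 68.1 and 64.5 FPKM. The 1 member higher in 92.1 was GDF15, a secreted stress protein, at 1.53 and 2.49 FPKM and 0.

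G1 regulators gave 6 of 17 higher in 92.1 by at least 1 and 3 in MEL290 (background 21.6% and 18.5%). CDKN2A, the gene of p16 and p14ARF, was at 76.9 and 84.9 FPKM in 92.1 and 4.96 and 4.83 FPKM in MEL290 (difference 3.80, adjusted p = 5.89e-06, limma), whereas its neighbour CDKN2B, the gene of p15, was at 0.568 and 1.54 against 9.19 and 8.81 FPKM. CDK4 was at 201 and 202 against 70.7 and 70.1 FPKM and CCND3 at 53.1 and 59.3 against 11.1 and 10.4 FPKM, both higher in 92.1. CDK2 was listed at 401 and 469.9 against 17.1 and 14.9 FPKM, but its span (chr12:55966781-55972789, plus strand) lies wholly inside that of PMEL (chr12:55954105-55973317, minus strand), 6009 shared bases. The library kit is not stated to keep the strand, so reads of the 2 genes cannot be told apart and the CDK2 value is uncertain. A check of 162 tested genes named in the text found 28 with a span that shares bases, introns included, with another tested gene. Among them are CENPA, ETV4, HTR2B, MLANA, RNASEH2A, S100A1, SLC16A3, SOX10 and TMSB10. The values of these 28 genes carry the same uncertainty to an extent that was not tested. In the BCL2 family, 3 of 12 were higher in 92.1 by at least 1 and 1 in MEL290 (background 21.6% and 18.5%). BCL2 was at 19.1 and 16.8 against 0.447 and 0.267 FPKM. BCL2L1, which encodes BCL-XL, was at 24.5 and 25.002 against 112 and 104 FPKM, so these 2 inhibitors of apoptosis stood in opposite order.

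Among single genes of interest for therapy, MGMT, which repairs alkylated guanine, was at 22.7 and 18.4 FPKM in 92.1 and 0.392 and 0.787 FPKM in MEL290 NC (difference 3.76, adjusted p = 3.03e-05, limma). In MEL290 A3B OE it was at 18.7 and 19.9 FPKM, inside the range of control 92.1, and in 92.1 shA3B at 23.7 and 17.8 FPKM. The line differences of controls and perturbed libraries differed by 3.67 (adjusted p = 0.00111, limma). MYC was at 284 and 271 against 121 and 121 FPKM and TERT, the catalytic subunit of telomerase, at 2.47 and 1.06 against 0 and 0 FPKM, a call lost without NC replicate 1 (1.42, adjusted p = 0.0736, limma) or 2 (1.42, adjusted p = 0.0738) and once the trend on GC and length was taken out (0.68, adjusted p = 0.0897). SAMHD1, a nucleotide hydrolase, was higher in MEL290, at 2.39 and 2.91 against 9.95 and 10.6 FPKM, and SLFN11, a determinant of sensitivity to replication stress drugs, did not reach the minimum in either line. Of the 6 tested genes of this list, 3 were higher in 92.1 by at least 1 and 1 in MEL290.

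Antigen presentation and interferon genes gave no common direction. Of 14 genes of the HLA class I pathway, 4 were higher in 92.1 by at least 1 and 3 in MEL290 (background 21.6% and 18.5%). The median of 0.14 turned to -0.14 once a trend on GC content and length was removed. HLA-C was at 5.97 and 5.55 against 122 and 122 FPKM, a value that is uncertain because reads can be shared with near-identical genes of the family. B2M, the shared light chain, was at 535 and 443 against 1245 and 1188 FPKM. Of the 12 class II genes 4 were tested, 2 of them higher in 92.1 by at least 1, and CD74 and HLA-DRA did not reach 1 FPKM in 2 libraries. Of 13 interferon and sensing genes, 5 were higher in MEL290 by at least 1 and 2 in 92.1. The ubiquitin-like ISG15 was at 5.26 and 7.88 against 33.8 and 34.3 FPKM and IRF9, a subunit of the interferon-activated factor ISGF3, at 4.68 and 4.22 against 28.2 and 23.8 FPKM, while STING1, which relays cytosolic DNA sensing, was at 40.8 and 35.5 against 6.94 and 7.03 FPKM. The DNA sensor gene CGAS reached at most 0.202 FPKM in any of the 4 libraries. Of 6 tested genes of the inflammatory cytokine list, 4 were higher in MEL290 by at least 1, with LIF at 0.206 and 0.0107 against 86.2 and 92.1 FPKM and CXCL8 at 0.0259 and 0.0551 against 14.1 and 12.8 FPKM. All 4 encode cytokines, while the remaining members tested, TNFAIP3 and NFKBIA, do not. CCL2, a chemokine for monocytes, was at 1.99 and 0.839 against 5.41 and 4.88 FPKM between controls and stood in the reverse order in the perturbed libraries, at 2.25 and 1.90 FPKM in 92.1 shA3B and 0.326 and 0.0990 FPKM in MEL290 A3B OE, and its call between controls was lost without NC replicate 1 (-1.33, adjusted p = 0.0753, limma) or 2 (-1.45, adjusted p = 0.0647). The medians of the class II, interferon and cytokine lists changed sign when an FPKM of at least 1 was required in all 4 libraries, which removed the members near 0 in 1 line. It left HLA-DMA (-0.09) as the 1 class II member tested and NFKBIA (0.35) as the 1 member of the cytokine list, so these 2 values are no list medians. Of the cancer-testis antigens, MAGEA3, MAGEA6 and SSX1 were tested, all listed at 0 in MEL290, with SSX1 at 6.62 and 5.76 FPKM in 92.1. The MAGEA genes are near-identical copies, so their values are uncertain, and PRAME reached at most 0.169 FPKM.

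Metabolic genes differed in part. Of 19 glycolysis genes, 8 were higher in MEL290 by at least 1 and 2 in 92.1, with a median of -0.86 between controls and -1.40 between perturbed libraries, and 4 of the 19 were called in the test of the difference of line differences. The lactate exporter SLC16A3 was at 0.536 and 0.914 against 472 and 437 FPKM, a difference of -8.05 ± 0.14 (SE, n = 2 per line) with an adjusted p of 2.16e-06 in limma. The glucose transporter SLC2A1 was at 13.1 and 18.1 against 211 and 231 FPKM and PKM, the last enzyme of the pathway, at 320.4 and 346 against 1361 and 1424 FPKM. Of 78 subunits of oxidative phosphorylation, 15 were higher in 92.1 by at least 1 and 2 in MEL290, shares of about the background or below it, with a median of 0.34. Of 79 cytosolic ribosomal proteins, 23 were higher in 92.1 by at least 1 and 2 in MEL290 (background 21.6% and 18.5%), with a median of 0.48. TMSB4X, TMSB10, KRT8, KRT18 and many genes of this paragraph have near-identical processed pseudogenes, so their values are uncertain to the extent that reads were shared with them. Among 13 reference genes, 2 were higher in 92.1 by at least 1 and 1 in MEL290: GAPDH was at 2125 and 2371 against 5168 and 5550.0 FPKM, RPLP0 at 3615 and 4209 against 1974 and 1878 FPKM and PPIA at 1685 and 1367 against 1691 and 1535 FPKM. The 5 most abundant genes of 92.1 were all encoded by mitochondrial DNA, led by MT-CO3 at 18167 and 17926 FPKM. Those of MEL290 were MT-ATP8, MT-CO2, MT-CO1, the actin gene ACTG1 at 9971 and 9156 FPKM and TMSB10, another actin-binding thymosin, at 9351 and 9731 FPKM. MT-ATP8 is a short gene that overlaps MT-ATP6, and its values of 5885 and 2809.7 FPKM in 92.1 differed widely between libraries. Its call was lost without NC replicate 1 (-2.51, adjusted p = 0.0508, limma), and that of MT-CO1 without shCtrl replicate 2 (0.26, adjusted p = 0.0597) and without NC replicate 1 (0.29, adjusted p = 0.184) or 2 (0.27, adjusted p = 0.201). Quantile normalization also ended the MT-CO1 call, with a difference of 0.068 (adjusted p = 0.377, limma).

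Genes restricted to 1 line were defined as those with an FPKM of at least 10 in both libraries of that line and under 0.1 in both of the other. This held for 111 genes of 92.1 and 138 of MEL290, of which 77 and 87 were listed at 0 in both libraries of the other line. The highest in 92.1 were SOX10, A2M, GAL, IGFBP2 and C11orf96. A2M, a protease inhibitor, stood at 261 and 248 FPKM and GAL, a neuropeptide, at 219.6 and 277 FPKM. The highest in MEL290 were TGFBI, KRT8, UCHL1, THBS1 and KRTAP2-3. UCHL1, a deubiquitinase of neurons, stood at 847 and 868 FPKM and KRTAP2-3, a hair keratin-associated protein, at 309 and 286 FPKM. The bound of 0.1 is near what a few fragments give at this depth. Levels below it in the other line, which were listed for some genes, are therefore uncertain.

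Genes were also grouped by chromosome arm. Over the 41 arms with at least 20 genes tested, medians ran from -0.57 on 6q to 0.87 on 8p, with 0.08 for all genes. The highest were 8p (149 genes), 19p (407 genes, 0.87), 8q (271 genes, 0.78) and 6p (349 genes, 0.75), and the lowest 6q (262 genes), 10p (102 genes, -0.49) and 3p (333 genes, -0.35). On 6p 135 genes were higher in 92.1 by at least 1 and 38 in MEL290, and on 6q 24 and 90. In the A3B-perturbed libraries the medians of 6p, 6q, 8p and 8q were 0.66, -0.48, 0.84 and 0.85. Once a trend on GC content and length was removed, the median of 19p, an arm rich in GC, was 0.40, that of 6p 0.60, that of 6q -0.35 and that of 10p -0.30, and 3p was then the lowest at -0.38. The median of 19q was 0.03 between controls and -0.31 between perturbed libraries. Arms were bounded by the widest stretch without genes, and no copy number was measured.

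**Figure D5:**
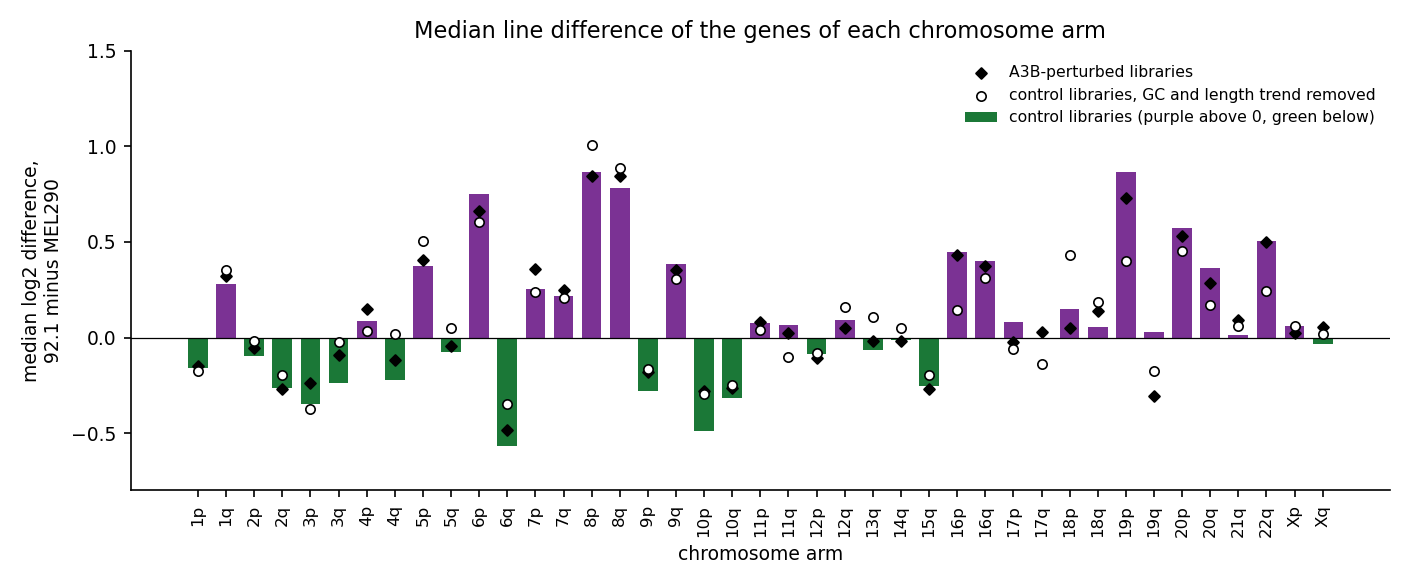
Bars are the median log2 difference, 92.1 shCtrl minus MEL290 NC, over the tested genes of each chromosome arm (y axis), diamonds the same median for 92.1 shA3B minus MEL290 A3B OE, and open circles the control median after removal of a GC and length trend. The bars of 8p, 8q, 19p and 6p are the tallest above 0 and that of 6q the deepest below it.

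The line differences rest on 2 libraries a line, and for any single gene the exact permutation test (two-sided) stops at a p of 0.33 in this design, so the calls lean on the spread shared across genes. The authors' files of the 2 lines name their gene column differently and no scaling between the lines is stated, so a difference in processing between the lines cannot be told apart from a difference between the cells.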

How the data were processed

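Per the labels and methods, total RNA was sequenced in paired ends, reads were aligned to GRCh38 with STAR and gene values were computed with Cufflinks over Ensembl release 75, tool versions not stated here. That release was made for an assembly before GRCh38, so the annotation behind the values is uncertain. The deposited values were FPKM per gene, made by the authors for 1 library per file, with no scaling between lines stated and no counts, so depth was only roughly read from the lowest values. Differences were fitted with limma 3.58.1 in R 4.3.3, with a trend, on log2(FPKM + 1) over all 12352 genes with at least 1 FPKM in at least 2 of the 4 libraries, with Benjamini-Hochberg adjustment at 0.05. The A3B-perturbed libraries were fitted likewise, and the difference of both line differences over all 8 libraries. Scripts were tested on simulated data.

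The members and lists were chosen with earlier results of these data known. Named were the 12 largest differences per direction among called genes without overlap and with a mean of at least 4 FPKM, list members of a defining role or with the largest differences, A3B with its family and RNASEH1, the 5 most abundant and the 5 highest line-restricted genes per line. XIST and Y-linked genes were not named, and a few other genes are not reported here. S and G2/M lists came from Seurat 5.3.0. Of 19952 symbols 19033 matched GENCODE 44, which gave coordinates, GC content and length in GRCh38. Alternatives were another test, scaling, filter, pseudocount, set of samples, a replicate block, leaving out each library, and removal of a GC and length trend.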

Additional observations from a re-analysis of the deposited data

Results flagged for a closer look

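The genes below had a line difference that differed between the control and the A3B-perturbed libraries, by the test over all 8 libraries in limma at an adjusted p under 0.05. Values are the control difference minus the perturbed difference on the log2 scale. APOBEC3B, the gene the study perturbed, had the largest at 6.55 (adjusted p = 2.26e-06). MGMT followed at 3.67 (adjusted p = 0.00111). The replication genes were above 0, CDC45 by 0.86, MCM2 by 1.00 and MCM3 by 0.89, as was CENPA by 0.99. The cell cycle inhibitors went apart, CDKN2A at 0.89 and CDKN1A at -1.36. CDK2, whose value is uncertain, was at 0.74.

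Among the genes higher in MEL290, a positive value means a larger difference between perturbed libraries and a negative one a smaller difference. SLC16A3 (1.11), AXL (1.01), COL8A1 (0.75) and CDH11 (0.72) had a larger one. KRTAP2-3 (-2.25), KRT34 (-1.73), CYP24A1 (-1.31), KRT18 (-0.91) and TGFBI (-0.87) had a smaller one. STING1, higher in 92.1, was at 0.92. CCL2 was at -2.74 and turned its direction. Which of the vectors, A3B levels or libraries these differences follow was not tested.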

How the results depend on the processing

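The count of 9021 called genes lay between 7082 (FPKM of at least 1 in all 4 libraries) and 9470 (no filter) under the alternatives that kept all libraries, and was 6589 to 7710 when 1 library was left out, with 3611 to 4054 higher in 92.1 and 2978 to 3656 higher in MEL290. With the replicate block it was 9279, of which 8913 were also called without it, 9161 between perturbed libraries and 460 in the test of the difference. Across the lines, same-numbered control libraries deviated from their group means with a correlation of 0.03. Whether same-numbered libraries of 1 line, control and A3B-perturbed, deviated together was not tested, so a shared batch within a line remains possible. The block changed no call of the named genes checked. The added minimum of 1 on the log2 scale left 4959 genes (2668 and 2291), 4550 between perturbed libraries and 257 in the test of the difference. A pseudocount of 0.1 gave 376 in that test. A3B kept its call and direction under every alternative run. List medians stayed within the spread between libraries in 379 recomputed cases and moved by more in 99. Signs turned for the retinal pigment epithelium, immune, receptor tyrosine kinase, BCL2, reference and single gene lists, beside those given above.

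Of the named genes that were not called, some turned their sign. Leaving out 1 library at a time gave -0.61 to 0.15 for APOBEC3F (above 0 without shCtrl replicate 2 or NC replicate 2), -0.87 to 0.34 for CD68 (above 0 without shCtrl replicate 1, and called at -0.87 without shCtrl replicate 2, adjusted p = 0.0229, limma), -0.064 to 0.18 for LEF1 (below 0 without shCtrl replicate 1 or NC replicate 1) and -0.24 to 0.065 for PPIA (above 0 without shCtrl replicate 2). PPIA was called under quantile normalization (-0.31, adjusted p = 0.0407, limma). Taking out the trend on GC and length gave -0.039 for LEF1 and 0.092 for ATR. The causes were not tested. Depth limits the genes near 0 FPKM.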

Other observations

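Several gene families outside the lists above also differed between the control lines. They were chosen after their values were seen, so their counts are descriptions. Of 15 keratins tested, 13 were higher in MEL290 by at least 1 and 9 were listed at 0 in both 92.1 libraries. Hair and hyperproliferative keratins were among them, with KRT81 at 26.1 and 27.9 FPKM and KRT34 at 111 and 99.4 FPKM in MEL290. All 6 chorionic gonadotropin beta genes tested, placental hormone genes, were higher in MEL290, with a median difference of -5.29, and so were the 3 pregnancy-specific glycoprotein genes tested. The members of both families are near-identical copies that share reads, so single values are uncertain. The 3 metallothioneins, which bind zinc and copper, were higher in MEL290 too, MT2A at 76.1 and 87.1 FPKM in 92.1 and 6845 and 6373 FPKM in MEL290. Of 10 annexins, calcium-dependent membrane-binding proteins, 7 were higher in MEL290 by at least 1 and 0 in 92.1, with ANXA1 at 18.5 and 21.02 against 394 and 397 FPKM. The 3 guanylate-binding proteins, GTPases induced by interferon, were higher in MEL290, GBP1 at 0 and 0 against 12.4 and 13.03 FPKM.

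In the other direction, 6 of 10 SOX genes were higher in 92.1 by at least 1 and 2 in MEL290. Of the 3 NR4A nuclear receptors tested, immediate early genes, 2 were higher in 92.1 by at least 1. All 3 were called higher there, as were 39.3% of all genes. NR4A1 was at 134 and 192 against 3.95 and 4.68 FPKM and NR4A3 at 43.9 and 45.2 against 0.0475 and 0.0886 FPKM. Of the 13 protein-coding genes of the mitochondrial genome, 9 were called higher in 92.1 and 3 in MEL290, where the shares of all genes were 39.3% and 33.7%. Of these, 3 and 1 differed by at least 1 (background 21.6% and 18.5%). TMSB4X, at about 1 FPKM or below in 92.1, is abundant in most cell types, and its relative TMSB10 was at 1432 and 1172 FPKM there.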
